A study of Mus musculus with 4 samples.

Results

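The genes described here encode nuclear pore proteins (nucleoporins) and karyopherins, the receptors that carry cargo through the pore. They are the protein-coding genes of the deposited count table whose symbols begin with Nup and a digit, with Kpna or Kpnb, or with Ipo, Xpo or Tnpo and a digit, together with Xpot. This gave 43 of 28443 genes, of which 20 encode pore proteins and 23 karyopherins, and 42 had enough counts to be tested. The rule reads gene names and no measured value, but it was set with earlier results of these data known. mRNA was sequenced from mouse bone marrow-derived macrophages (BMDMs) of 8-week-old mice, given RANKL, the cytokine that starts osteoclast differentiation, at 50 ng/ml for 1 day. MYC-deficient cells came from MYC f/f LysM cre mice and MYC-WT cells from LysM cre mice, so that both genotypes carry LysM-Cre, which is active in myeloid cells. Each genotype had 2 libraries, described as biological replicates, and RANKL was given to all 4. The labels do not say whether replicates came from separate animals or cultures, so p-values measure the spread between these libraries.

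Total counts were 35794698 and 27544806 in MYC-deficient libraries, against 33234789 and 29146387 in MYC-WT libraries. Values are CPM (counts relative to the total of a library), scaled between libraries by TMM. Myc had 17.7 and 24.7 CPM in MYC-deficient libraries and 225 and 251 CPM in MYC-WT libraries, which is 11.3-fold lower (adjusted p = 0.00711, edgeR's quasi-likelihood test). Of 7 macrophage markers, 4 were higher in MYC-deficient cells (Csf1r, Adgre1, Cd68 and Itgam), and the 7 summed to 5065 and 4838 CPM there, against 3209 and 2793 CPM in MYC-WT libraries. Lyz2 had a negative log2 fold change (-0.42, adjusted p = 0.430, same test), at a low level for a macrophage marker. It had 9.46 and 11.5 CPM in MYC-deficient libraries and 18.6 and 9.33 CPM in MYC-WT libraries, while Csf1r had at least 1053 CPM in each. The reason for this low level was not tested. Lyz2 overlapped between genotypes, as did Fcgr1 and Mertk (log2 fold changes 0.12 and 0.35). Of 8 tested osteoclast markers, 3 were lower (Nfatc1, Ocstamp and Oscar) and none was higher by the quasi-likelihood test, DESeq2 or limma-trend. At an unadjusted p under 0.05, 5 of the 8 were lower and 1 was higher, against 20.4% and 16.0% of all genes tested. The higher marker was Mmp9 (log2 fold change 0.49, adjusted p = 0.127, quasi-likelihood test). Acp5, Ctsk and Atp6v0d2 were not called either, with log2 fold changes of -1.40, -1.51 and -0.68 (adjusted p = 0.0710, 0.104 and 0.153, same test). Dcstamp had a log2 fold change of 0.37 (adjusted p = 0.603). The osteoclast list summed to 1412 and 1490 CPM in MYC-deficient libraries, against 1600 and 2380 CPM in MYC-WT libraries, with Calcr at 0 in all. The labels call the cells early osteoclasts. Of 7 neutrophil markers none was called by the quasi-likelihood test (3 higher at an unadjusted p under 0.05, 2 higher by DESeq2 and none by limma-trend), with sums of 278 and 101 CPM in MYC-deficient libraries and 99.5 and 44.8 CPM in MYC-WT libraries. Marker sums of T cells, B cells, erythroid and stromal cells were at most 5.96 CPM in any library, with Cd3e and Cd3d at 0. A list of 12 mitosis genes held no called gene (1 higher at an unadjusted p under 0.05, none by DESeq2 or limma-trend) and summed to 3884 and 2749 CPM in MYC-deficient libraries, against 3128 and 2644 CPM in MYC-WT libraries. The part of these markers in the results below was not tested, and in bulk libraries fewer cells of a type and less RNA per cell cannot be told apart.

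The nuclear pore is a channel through the nuclear envelope, built from rings of scaffold proteins anchored by membrane proteins, with filaments on its cytoplasmic side and a basket on its nuclear side. Nucleoporins rich in phenylalanine-glycine repeats fill the channel and let karyopherins pass. Importins bind cargo in the cytoplasm and release it in the nucleus when they bind Ran in its GTP form, while exportins load cargo together with Ran-GTP in the nucleus. Among the cargoes are histones, ribosomal proteins, tRNA, precursors of microRNAs and transcription factors.

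MYC, as a dimer with MAX, binds the E-box CACGTG. The sequences below, from RefSeq on GRCm38.p6, run 5′ to 3′ from 250 bases before the annotated start of transcription to 50 bases after its start. They are shown because the first 4 genes were lower in MYC-deficient cells and hold this E-box, in capitals, while Nup210, the member with the lowest log2 fold change, does not hold it in this window.
Ipo4, chr14:55635635-55635934, minus strand: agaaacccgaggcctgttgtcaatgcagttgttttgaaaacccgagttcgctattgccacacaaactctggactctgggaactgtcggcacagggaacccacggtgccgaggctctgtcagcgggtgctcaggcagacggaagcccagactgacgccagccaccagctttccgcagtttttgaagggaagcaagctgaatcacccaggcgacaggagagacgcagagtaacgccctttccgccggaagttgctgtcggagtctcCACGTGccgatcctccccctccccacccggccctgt
Ipo7, chr7:110018065-110018364, plus strand: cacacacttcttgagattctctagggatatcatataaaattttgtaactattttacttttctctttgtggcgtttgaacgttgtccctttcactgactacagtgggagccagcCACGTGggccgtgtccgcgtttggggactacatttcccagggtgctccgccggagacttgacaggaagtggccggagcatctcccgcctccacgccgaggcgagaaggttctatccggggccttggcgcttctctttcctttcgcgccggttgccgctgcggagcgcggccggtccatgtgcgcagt
Xpot, chr10:121626283-121626582, minus strand: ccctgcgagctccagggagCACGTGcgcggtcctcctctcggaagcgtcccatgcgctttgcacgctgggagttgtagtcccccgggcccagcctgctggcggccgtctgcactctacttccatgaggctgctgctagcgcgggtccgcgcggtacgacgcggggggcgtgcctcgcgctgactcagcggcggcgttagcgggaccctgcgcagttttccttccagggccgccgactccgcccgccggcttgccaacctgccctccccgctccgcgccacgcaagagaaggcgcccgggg
Nup54, chr5:92435150-92435449, minus strand: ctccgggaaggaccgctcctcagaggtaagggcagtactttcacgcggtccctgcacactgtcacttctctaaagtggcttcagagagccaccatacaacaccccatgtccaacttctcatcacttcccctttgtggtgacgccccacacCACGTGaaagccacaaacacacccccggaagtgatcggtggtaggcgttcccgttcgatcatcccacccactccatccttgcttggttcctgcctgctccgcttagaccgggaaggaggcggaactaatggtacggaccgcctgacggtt
Nup210, chr6:91116777-91117076, minus strand: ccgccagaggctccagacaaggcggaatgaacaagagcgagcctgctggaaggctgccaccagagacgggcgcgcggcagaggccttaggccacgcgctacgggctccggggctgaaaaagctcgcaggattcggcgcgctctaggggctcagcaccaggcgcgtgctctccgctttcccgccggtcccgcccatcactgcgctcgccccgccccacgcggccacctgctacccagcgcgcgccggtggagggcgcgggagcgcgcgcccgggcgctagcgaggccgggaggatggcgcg

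In Ipo4 the E-box begins 14 bases after the start. It begins 137 bases before the start in Ipo7, 231 before in Xpot and 100 before in Nup54. CACGTG reads the same on both strands, and a gene was counted once if any of its RefSeq windows held it. A window was found for 34 of the 43 members, and 7 held the E-box (20.6%). Among them Nup188 and Tnpo2, with a pair of E-boxes each, and Nup93 are not shown. These 3 were not called (log2 fold changes -0.45, -0.39 and -0.32). The share was 18.8% of 16 pore proteins and 22.2% of 18 karyopherins. It was 11.8% of 9845 tested genes with a window and 8.09% of all 27025 genes in the promoter table. Of 11 called members with a window, 4 held it (36.4%), against 3 of the 22 members tested and not called (13.6%). Among all 1034 genes called lower with a window, the share was 16.9%. The median log2 fold change was -0.69 over the 7 members with the E-box and -0.40 over the 26 tested members with a window and none. A match in these windows describes the sequence only, and MYC binding was not measured here.

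In MYC-deficient cells 15 of the 42 tested members were lower (35.7%), none was higher and 27 were not called. Of these 27, 8 had an adjusted p under 0.05 and missed only the fold threshold. Over all 13436 genes tested, 9.91% were lower and 6.06% were higher by the same rule, an adjusted p under 0.05 from edgeR's quasi-likelihood test with a change of more than 1.5-fold. At an unadjusted p under 0.05, 31 members were lower and none was higher, against 20.4% lower and 16.0% higher of all genes. DESeq2 called 14 members lower and none higher (10.7% and 8.98% of 12133 genes), and limma-trend called 14 of 41 lower and none higher (10.4% and 7.78% of 11109 genes). Log2 fold changes were negative for 40 of 42 members, against 51.0% of all genes tested. In 36 members both MYC-deficient libraries lay below both MYC-WT libraries, which was so for 34.2% of all genes. Kpna4 lay above in both, and Nup98, Nup160, Kpna2, Ipo9 and Ipo13 overlapped. The median log2 fold change of the members was -0.47, against -0.01 over all genes tested. Most differences were small: the middle 50% of log2 fold changes lay between -0.70 and -0.29. The number of members called fell to 9 when MYC-WT replicate 1 was left out and to 2 without MYC-WT replicate 2, when only Nup210 and Ipo4 remained. These were 21.4% and 4.76% of the members, against 5.06% and 1.41% of all genes tested in the same fits, where the counts over all genes fell as well. Without MYC-deficient replicate 1 or MYC-deficient replicate 2 the numbers were 16 and 13 members, against 8.39% and 9.02% of all genes. With 3 libraries the spread came from the pair of the other genotype alone, with 1 residual degree of freedom, and with either MYC-WT library left out the log2 fold changes of the 15 called members moved by at most 0.16. All 15 called members are shown library by library in the plot of CPM.

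**Figure D1:**
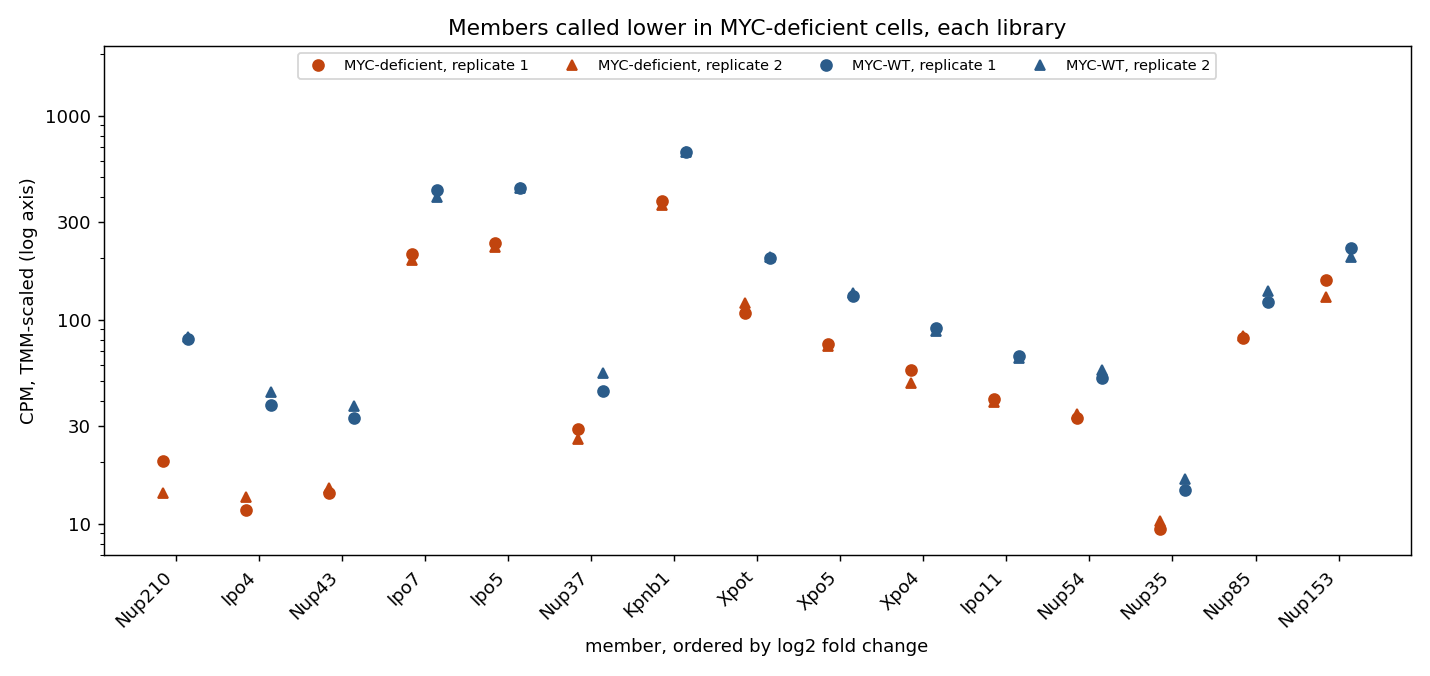
CPM (TMM-scaled, log axis) of the 15 members called lower, ordered by log2 fold change, with orange points for the 2 MYC-deficient libraries, left of blue points for the 2 MYC-WT libraries (circles, replicate 1; triangles, replicate 2). In each member both MYC-deficient points lie below both MYC-WT points, from Nup210 at 20.3 and 14.2 against 80.5 and 82.8 CPM to Nup153 at 156 and 129 against 225 and 203 CPM.

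Pore proteins were lower in 7 of 20 cases (35%), spread over the membrane, both scaffold rings, the channel and the basket. The membrane protein Nup210 (ENSMUSG00000030091, mm10 chromosome 6 from 91013068 to 91116829) had the largest decrease of the 42 members. Nup210 spans the pore membrane, and its level is known to differ between cell types in mouse. It had 20.3 and 14.2 CPM in MYC-deficient libraries, against 80.5 and 82.8 CPM in MYC-WT libraries. The 2 MYC-WT libraries nearly coincided, and the MYC-deficient libraries lay far below them. The mean was 17.2 ± 4.32 CPM over MYC-deficient libraries and 81.6 ± 1.62 CPM over MYC-WT libraries (SD, n = 2 each), a 4.73-fold decrease (log2 fold change -2.24, standard error 0.19, adjusted p = 0.00756, edgeR's quasi-likelihood test). Only 97 of 13436 genes had a lower log2 fold change. The call held under each of 12 alternatives, at adjusted p of at most 0.0355. Nup210l, a related gene known mainly from testis, had 1.26 and 0.925 CPM in MYC-deficient libraries and 1.97 and 1.31 CPM in MYC-WT libraries, and did not pass (adjusted p = 0.291, same test).

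In the outer ring, the scaffold on both faces of the pore, 3 of 7 tested members were lower, with a median log2 fold change of -0.58. Nup43 and Nup37 are small propeller-shaped subunits at the edge of the Y-shaped complex that builds this ring. Nup43 (ENSMUSG00000040034, chromosome 10 from 7667503 to 7678881) had 14.1 and 15.02 CPM in MYC-deficient libraries, against 33.0 and 37.8 CPM in MYC-WT libraries. The genotypes were well apart, with means of 14.6 ± 0.632 and 35.4 ± 3.38 CPM (SD, n = 2 each) in MYC-deficient and MYC-WT cells, a 2.43-fold decrease (log2 fold change -1.28, standard error 0.13, adjusted p = 0.00876, edgeR's quasi-likelihood test). Nup37 had 29.2 and 26.1 CPM in MYC-deficient libraries, against 44.5 and 55.0 CPM in MYC-WT libraries. It was 1.801-fold lower (adjusted p = 0.0207), and its MYC-WT libraries differed more from each other than its MYC-deficient libraries. Nup85, a scaffold subunit of the same complex, had 81.4 and 83.3 CPM in MYC-deficient libraries and 122 and 138 CPM in MYC-WT libraries, and was 1.58-fold lower (adjusted p = 0.0190). Nup107, which gives the complex its name, had 73.2 and 71.2 CPM in MYC-deficient libraries, against 106 and 110 CPM in MYC-WT libraries. Its adjusted p was 0.0193, but its log2 fold change of -0.58 was just short of the fold threshold, which it passed with scaling by total counts. Nup133 and Nup160, long subunits of the complex, had log2 fold changes of -0.50 (adjusted p = 0.0277) and -0.26 (adjusted p = 0.284). The Nup98 gene also encodes Nup96, a subunit of the ring made by cleavage of a joint precursor, and its log2 fold change was -0.14 (adjusted p = 0.545). Nup98 had 0.0049 without MYC-WT replicate 1. Without MYC-WT replicate 2, Nup43, Nup37 and Nup85 lost their call (adjusted p = 0.0508, 0.102 and 0.116).

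The inner ring, which lines the middle of the pore, had 1 of 5 members lower, with a median log2 fold change of -0.45. Nup35, which links inner ring proteins to the membrane, had 9.46 and 10.3 CPM in MYC-deficient libraries, against 14.7 and 16.5 CPM in MYC-WT libraries. It was 1.58-fold lower (standard error 0.15 on the log2 scale, adjusted p = 0.0398, edgeR's quasi-likelihood test). This call was lost when any 1 library was left out (adjusted p between 0.0660 and 0.225) and with RLE scaling, and 131 of its exon bases overlap Dusp19. Nup205, a large scaffold protein, had 180 and 157 CPM in MYC-deficient libraries, against 241 and 223 CPM in MYC-WT libraries (log2 fold change -0.46, adjusted p = 0.0539). The genotypes did not overlap, yet the test was not passed. Nup188, Nup155 and Nup93, further scaffold proteins, had log2 fold changes of -0.45, -0.39 and -0.32, of which Nup188 had an adjusted p under 0.05 (0.0337).

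In the central channel, Nup54 and Nup62 carry the repeats that karyopherins bind. Nup54 had 33.1 and 34.4 CPM in MYC-deficient libraries, against 51.8 and 56.9 CPM in MYC-WT libraries. Replicates lay close together in both genotypes, and Nup54 was 1.61-fold lower (log2 fold change -0.69, standard error 0.11, adjusted p = 0.0174, edgeR's quasi-likelihood test). Nup62 had 126 and 119 CPM in MYC-deficient libraries and 151 and 174 CPM in MYC-WT libraries, and did not pass (log2 fold change -0.41, adjusted p = 0.0656). Nup153 and Nup50 belong to the nuclear basket, where Nup50 helps to recycle importin alpha. Nup153 had 156 and 129 CPM in MYC-deficient libraries, against 225 and 203 CPM in MYC-WT libraries. It was 1.501-fold lower, just past the threshold (log2 fold change -0.59, standard error 0.14, adjusted p = 0.0412), and the call was lost with RLE scaling, with DESeq2 and with limma-trend. Nup50 had a log2 fold change of -0.53 (adjusted p = 0.0349). At the cytoplasmic face neither Nup214 nor Nup88, partners that bind the exportin Xpo1, was called by the quasi-likelihood test, by DESeq2 or by limma-trend, although both had an unadjusted p under 0.05. Nup214 had 100.9 and 89.4 CPM in MYC-deficient libraries, against 144 and 139 CPM in MYC-WT libraries, and its log2 fold change of -0.57 (adjusted p = 0.0261) lay just outside the fold threshold. Nup54 and Nup153 lost their call without MYC-WT replicate 1 (adjusted p = 0.0529 and 0.157) or MYC-WT replicate 2 (adjusted p = 0.109 and 0.130), and Nup153 also without MYC-deficient replicate 2 (adjusted p = 0.114). Without MYC-deficient replicate 1, Nup214 and Nup50 passed (log2 fold changes of -0.64 and -0.61).

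**Figure D2:**
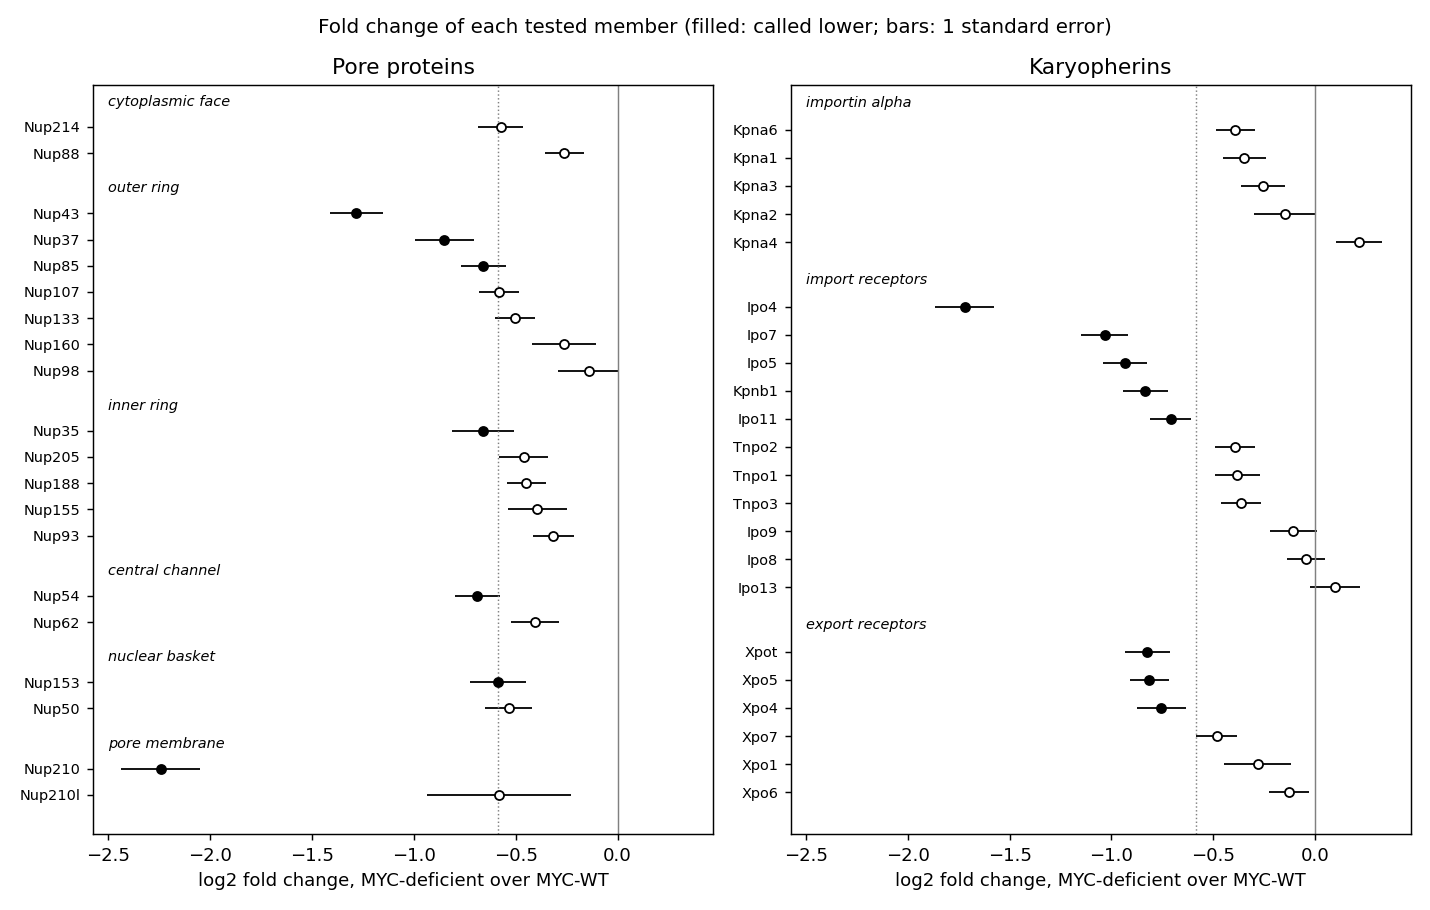
Log2 fold change of each tested member (MYC-deficient over MYC-WT), grouped by place in the pore or by kind of receptor, with bars of 1 standard error, filled points for the 15 called members, a dotted line at the fold threshold of 1.5 and a solid line at 0. Every pore protein lies left of 0, from -2.24 (Nup210) to -0.14 (Nup98), while karyopherins run from -1.72 (Ipo4) to 0.21 (Kpna4).

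Karyopherins were lower in 8 of 22 tested cases (36.4%), all of them importins of the beta family or exportins. Of 11 import receptors 5 were lower, with a median log2 fold change of -0.39. Ipo4 (ENSMUSG00000002319, chromosome 14 from 55625400 to 55635957), a receptor for histones and ribosomal proteins, had 11.7 and 13.51 CPM in MYC-deficient libraries, against 38.4 and 44.4 CPM in MYC-WT libraries. The means were 12.6 ± 1.30 CPM over MYC-deficient libraries and 41.4 ± 4.27 CPM over MYC-WT libraries (SD, n = 2 each), a 3.29-fold decrease (log2 fold change -1.72, standard error 0.14, adjusted p = 0.00736, edgeR's quasi-likelihood test). This was the lowest log2 fold change among karyopherins, and 246 of 13436 genes were lower. Ipo4 kept its call under all 12 alternatives, at adjusted p of at most 0.0379. Of its 4669 exon bases in GENCODE M21, 2583 also belong to Gm49378 on the same strand, so reads of this part could be counted for either or for neither.

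Ipo7 and Ipo5 carry ribosomal proteins and histones, Ipo7 also histone H1 together with Kpnb1. Ipo7 (chromosome 7 from 110018274 to 110056609) had 209.9 and 196 CPM in MYC-deficient libraries, against 431 and 399 CPM in MYC-WT libraries. It was 2.05-fold lower (log2 fold change -1.03, standard error 0.11, adjusted p = 0.00984, edgeR's quasi-likelihood test). Ipo5 (chromosome 14 from 120911224 to 120947999) had 237 and 228 CPM in MYC-deficient libraries, against 445 and 443 CPM in MYC-WT libraries. It was 1.91-fold lower (standard error 0.11 on the log2 scale, adjusted p = 0.01004). Kpnb1, importin beta, which imports cargo bound by importin alpha, lies on chromosome 11 from 97159714 to 97187881. Kpnb1 had 380 and 366 CPM in MYC-deficient libraries, against 661 and 668 CPM in MYC-WT libraries, and was 1.78-fold lower (log2 fold change -0.83, adjusted p = 0.0132). Ipo11 had 40.9 and 39.7 CPM in MYC-deficient libraries and 66.7 and 65.1 CPM in MYC-WT libraries, a 1.63-fold decrease (adjusted p = 0.0143). In these 4 genes the replicates of each genotype differed little beside the distance between genotypes. Without MYC-WT replicate 2 all 4 lost their call (adjusted p = 0.0539 for Ipo7, 0.0656 for Ipo5, 0.0909 for Kpnb1 and 0.0815 for Ipo11), and so did Kpnb1 and Ipo11 when MYC-WT replicate 1 was left out (adjusted p = 0.0618 and 0.0611).

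The other 6 import receptors were not called. Tnpo1 and Tnpo2, transportins that import RNA-binding proteins, had log2 fold changes of -0.38 and -0.39 (adjusted p = 0.0650 and 0.0482, edgeR's quasi-likelihood test). Tnpo1 had 233 and 226 CPM in MYC-deficient libraries, against 312 and 286 CPM in MYC-WT libraries. Tnpo2 had 87.3 and 87.0 CPM in MYC-deficient libraries, against 111 and 118 CPM in MYC-WT libraries. Both lay below in each library, by less than the fold threshold. Tnpo3, the receptor of serine- and arginine-rich splicing factors, had a log2 fold change of -0.36 (adjusted p = 0.0563). Ipo9, which carries histones and actin, had -0.11 (adjusted p = 0.554). Ipo8 had 99.2 and 97.8 CPM in MYC-deficient libraries and 103 and 101 CPM in MYC-WT libraries, nearly level between genotypes (log2 fold change -0.05, standard error 0.09, adjusted p = 0.759). Ipo13, a receptor that works in both directions, had 94.8 and 112 CPM in MYC-deficient libraries, against 93.7 and 99.4 CPM in MYC-WT libraries, so that the genotypes overlapped (log2 fold change 0.10, adjusted p = 0.611, and -0.03 without MYC-deficient replicate 2).

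Importin alpha proteins are the adaptors that recognise the classical nuclear localisation signal and hand cargo to Kpnb1. None of 5 tested genes was called by the quasi-likelihood test, by DESeq2 or by limma-trend, 2 were lower at an unadjusted p under 0.05, against 20.4% of all genes tested, and the median log2 fold change was -0.26. Kpna6 and Kpna1 had -0.39 and -0.35 (adjusted p = 0.0461 and 0.0787, edgeR's quasi-likelihood test), and Kpna3 had -0.26 (adjusted p = 0.152). Kpna2 had 193 and 149 CPM in MYC-deficient libraries and 188 and 192 CPM in MYC-WT libraries, with MYC-deficient replicate 2 apart from the other libraries (log2 fold change -0.15, adjusted p = 0.520, and 0.02 without that library). Kpna4 had 165 and 160 CPM in MYC-deficient libraries, against 149 and 130 CPM in MYC-WT libraries. It was the only tested member with both MYC-deficient libraries above, and it did not pass (log2 fold change 0.21, standard error 0.11, adjusted p = 0.237). Kpna7 had no count in any library, which allows up to 3 counts, or 0.0839 and 0.111 CPM in MYC-deficient libraries and 0.0883 and 0.103 CPM in MYC-WT libraries.

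Of 6 exportins 3 were lower, with a median log2 fold change of -0.62. Xpot, which exports tRNA, had 108 and 121 CPM in MYC-deficient libraries, against 201 and 204 CPM in MYC-WT libraries. It was 1.77-fold lower (log2 fold change -0.82, standard error 0.11, adjusted p = 0.0130, edgeR's quasi-likelihood test). Xpo5, which exports microRNA precursors, had 76.2 and 74.4 CPM in MYC-deficient libraries, against 130 and 135 CPM in MYC-WT libraries, and was 1.76-fold lower (log2 fold change -0.81, standard error 0.10, adjusted p = 0.0107). Xpo4, an exporter of the translation factor eIF5A, had 56.9 and 49.0 CPM in MYC-deficient libraries, against 90.9 and 87.9 CPM in MYC-WT libraries, and was 1.69-fold lower (log2 fold change -0.75, standard error 0.12, adjusted p = 0.0171). In these 3 genes the MYC-WT replicates nearly coincided. Of the 10731 exon bases of Xpo4, 332 also belong to Gm49361 on the same strand. Xpo7, a receptor with a broad range of cargo, had 93.1 and 90.3 CPM in MYC-deficient libraries, against 133 and 123 CPM in MYC-WT libraries (log2 fold change -0.48, adjusted p = 0.0316). Xpo1, also named CRM1, exports proteins with a leucine-rich signal and had 349 and 277 CPM in MYC-deficient libraries, against 411 and 351 CPM in MYC-WT libraries. The higher MYC-deficient library of Xpo1 lay close to the lower MYC-WT library, and the test was not passed (log2 fold change -0.28, standard error 0.16, adjusted p = 0.268). Xpo6, which exports actin, had a log2 fold change of -0.13 (adjusted p = 0.399). Without MYC-WT replicate 2 Xpot, Xpo5 and Xpo4 lost their call (adjusted p = 0.0782, 0.0685 and 0.0848), Xpo4 also when MYC-WT replicate 1 was left out (adjusted p = 0.0671).

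Set side by side, pore proteins and karyopherins had nearly the same share of called genes, with the middle of their fold changes spread differently. Pore proteins had a median log2 fold change of -0.55 (1.47-fold lower) and the middle 50% lay between -0.66 and -0.40. Karyopherins had a median of -0.39 (1.31-fold lower) and the middle 50% lay between -0.80 and -0.18. By adjusted p alone, without the fold threshold, 12 of 20 pore proteins and 11 of 22 karyopherins were lower, against 12.0% of all genes tested. All 20 pore proteins and 20 of 22 karyopherins had negative values, against 51.0% of all genes tested. Both MYC-deficient libraries lay below both MYC-WT libraries in 18 of each, against 34.2% of all genes. Members of a class are not replicates, so no test was made between the classes. In each comparison the values are differences between genotypes within a gene, not levels.

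**Figure D3:**
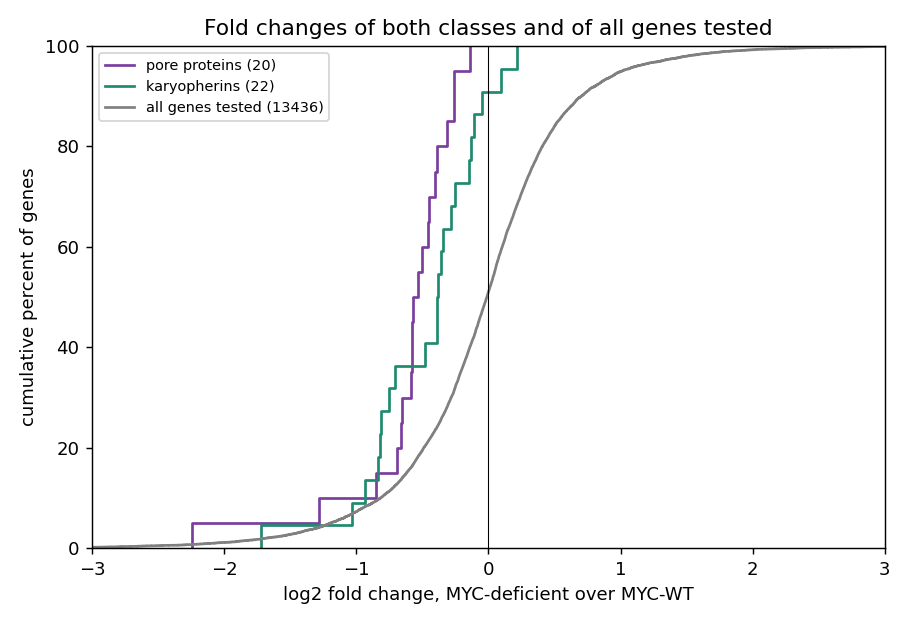
Cumulative percent of genes (y axis) at or below each log2 fold change (x axis, MYC-deficient over MYC-WT, drawn from -3 to 3) for 20 pore proteins, 22 karyopherins and all 13436 genes tested. Both classes lie left of the curve of all genes over most of its range, and over the middle 50% the karyopherins are wider (-0.80 to -0.18) than the pore proteins (-0.66 to -0.40), while over the whole range pore proteins run from -2.24 to -0.14 and karyopherins from -1.72 to 0.21.

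The summed level of the 20 pore proteins was 1630 and 1472 CPM in MYC-deficient libraries, against 2212 and 2181 CPM in MYC-WT libraries. The 23 karyopherins summed to 3240 and 3074 CPM in MYC-deficient libraries, against 4543 and 4387 CPM in MYC-WT libraries. Both sums were lower in each MYC-deficient library, and pore proteins took 0.163% and 0.144% of all counts there, against 0.226% and 0.217% in MYC-WT libraries. Within a library, the ratio of the pore sum to the karyopherin sum was 0.503 and 0.479 in MYC-deficient cells and 0.487 and 0.497 in MYC-WT cells. The ratios overlapped between genotypes. Without the top member of each sum, Nup205 and Kpnb1, they were 0.507 and 0.485 in MYC-deficient libraries and 0.508 and 0.527 in MYC-WT libraries. Both MYC-deficient ratios then lay below both MYC-WT ratios, but only barely. The nearest ratios of the genotypes, 0.507 and 0.508, were closer than the replicates of either genotype. Kpnb1, left out here, is itself a member called lower.

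**Figure D4:**
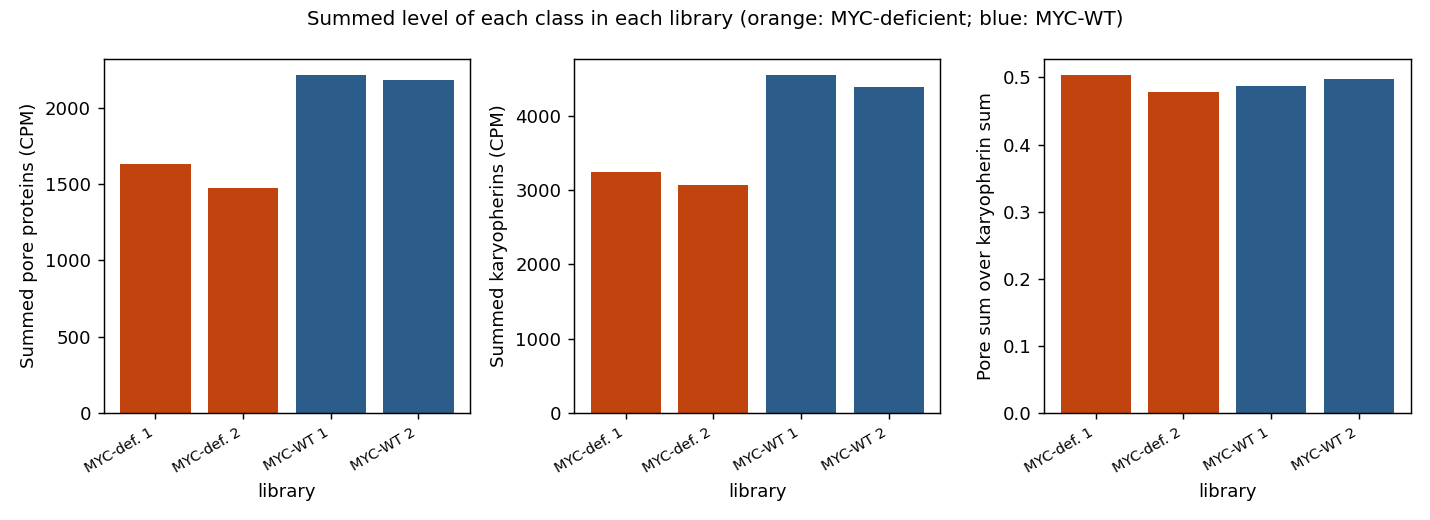
Summed CPM of pore proteins, summed CPM of karyopherins and the ratio of the 2 sums, with 1 bar for each library from a baseline of 0 (orange, MYC-deficient; blue, MYC-WT). Both sums are lower in the MYC-deficient libraries, and the ratio lies between 0.479 and 0.503 there, against 0.487 and 0.497 in MYC-WT libraries.

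Closely related members did not all differ alike between genotypes. For 5 pairs of paralogues, chosen with their values known, the ratio of counts within each library is given without a test, since 2 against 2 libraries cannot give an exact two-sided p below 0.333. The Ipo7 to Ipo8 ratio was 2.12 and 2 in MYC-deficient libraries, against 4.20 and 3.95 in MYC-WT libraries. The Kpna3 to Kpna4 ratio was 1.10 and 1.05 in MYC-deficient libraries, against 1.43 and 1.56 in MYC-WT libraries. Both ratios were lower in MYC-deficient cells, since the first gene of each pair was lower relative to its paralogue. Nup210 stood at 16.1 and 15.3 counts for each count of Nup210l in MYC-deficient libraries, against 40.8 and 63.3 in MYC-WT libraries, where Nup210l rests on 67 and 38 counts (45 and 25 in MYC-deficient libraries). The Tnpo1 to Tnpo2 ratio was 2.67 and 2.60 in MYC-deficient libraries and 2.82 and 2.42 in MYC-WT libraries. The Kpna1 to Kpna6 ratio was 0.874 and 0.912 in MYC-deficient libraries and 0.899 and 0.832 in MYC-WT libraries. These last ratios overlapped between genotypes. The treatment of reads shared between paralogues is not stated.

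**Figure D5:**
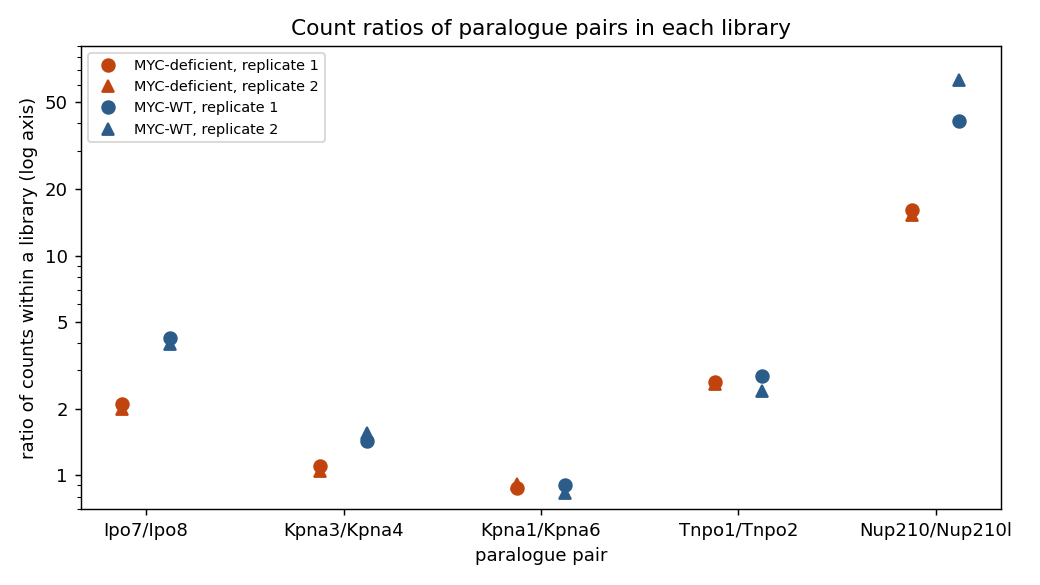
Ratio of counts within a library (log axis) for 5 pairs of paralogues, with orange points for MYC-deficient libraries left of blue points for MYC-WT libraries (circles, replicate 1; triangles, replicate 2). The genotypes are apart for Ipo7/Ipo8 (2.12 and 2 against 4.20 and 3.95), Kpna3/Kpna4 and Nup210/Nup210l, and overlap for Kpna1/Kpna6 and Tnpo1/Tnpo2.

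Levels of different genes were compared as CPM per kb of exon, with exon lengths from GENCODE M21. Kpnb1 had 56.6 ± 1.51 CPM per kb in MYC-deficient cells and 101 ± 0.745 in MYC-WT cells (SD, n = 2 each), where it had the highest level of all members. In MYC-deficient cells Kpna2 had the highest level, at 59.6 ± 10.8 CPM per kb, against 66.1 ± 0.963 in MYC-WT cells, and its spread there covered the level of Kpnb1. Ipo5 was in place 6 in MYC-deficient cells, at 38.7 ± 1.04 CPM per kb, and in place 2 in MYC-WT cells, at 74.0 ± 0.200. Ipo7 was in place 15 in MYC-deficient cells (18.1 ± 0.908 CPM per kb) and in place 8 in MYC-WT cells (37.1 ± 1.99). The pore protein with the highest level was Nup62, at 43.1 ± 1.70 CPM per kb in MYC-deficient cells and 57.0 ± 5.60 in MYC-WT cells. Its neighbours in MYC-deficient cells, Xpo1 at 43.6 ± 7.07 and Kpna3 at 40.5 ± 2.33 CPM per kb, had library values that overlapped those of Nup62. In MYC-WT cells those of Xpo1, at 53.1 ± 5.95, did so too. Within each MYC-deficient library Nup62 lay above Kpna3 (44.3 against 42.2 and 41.9 against 38.9 CPM per kb). Nup210 was near the bottom, at 1.64 ± 0.413 CPM per kb in MYC-deficient cells and 7.79 ± 0.155 in MYC-WT cells. Nup210l was the lowest of the tested members, at 0.191 ± 0.0413 CPM per kb in MYC-deficient cells and 0.287 ± 0.0821 in MYC-WT cells.

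Other genes of nuclear transport do not bear these names, and 37 of a list of 39 were tested. Of these 7 were lower (18.9%), against 9.91% lower and 6.06% higher of all genes tested. None was higher by the quasi-likelihood test, DESeq2 or limma-trend or at an unadjusted p under 0.05, and the median log2 fold change was -0.34. The Ran cycle, which supplies Ran-GTP to the nucleus, had 4 of 6 tested genes lower. Ranbp1, which helps to release Ran-GTP from karyopherins, had 63.2 and 63.1 CPM in MYC-deficient libraries, against 128 and 145 CPM in MYC-WT libraries, a 2.16-fold decrease (log2 fold change -1.11, standard error 0.11, adjusted p = 0.00875, edgeR's quasi-likelihood test). Ran itself had 265 and 284 CPM in MYC-deficient libraries, against 457 and 521 CPM in MYC-WT libraries, and was 1.78-fold lower (adjusted p = 0.0160). Nutf2, the import carrier of Ran, had 16.4 and 16.9 CPM in MYC-deficient libraries, against 24.5 and 31.2 CPM in MYC-WT libraries (log2 fold change -0.74, adjusted p = 0.0332). Rcc1, which loads Ran with GTP, had 88.2 and 80.1 CPM in MYC-deficient libraries, against 119 and 158 CPM in MYC-WT libraries (log2 fold change -0.72, adjusted p = 0.0395). In all 4 genes the genotypes did not overlap, with the MYC-WT replicates farther apart than the MYC-deficient ones. Rangap1, which activates GTP hydrolysis by Ran, had a log2 fold change of -0.18 (adjusted p = 0.346) and Ranbp3, a cofactor of Xpo1, -0.34 (adjusted p = 0.118). Rangrf had 1 count in all and was not tested. Ran, Nutf2 and Rcc1 lost their call without MYC-WT replicate 2 (adjusted p = 0.101, 0.171 and 0.161), Nutf2 also without MYC-deficient replicate 1 and Rcc1 also without MYC-deficient replicate 2.

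Cse1l, the exportin that returns importin alpha to the cytoplasm, had 182 and 154 CPM in MYC-deficient libraries, against 288 and 271 CPM in MYC-WT libraries, and was 1.66-fold lower (adjusted p = 0.0202, edgeR's quasi-likelihood test). Among 11 tested pore genes with other names 2 were lower (18.2%, against 9.91% of all genes tested) and 9 were not called. The genotypes overlapped in 4 of the 11, a share close to that over all genes tested (4815 of 13436). The median log2 fold change of these pore genes was -0.44. Rae1, which binds Nup98 and acts in mRNA export, had 44.5 and 45.3 CPM in MYC-deficient libraries, against 73.8 and 81.7 CPM in MYC-WT libraries, and was 1.73-fold lower (adjusted p = 0.0136). The membrane nucleoporin Ndc1 was 1.52-fold lower (adjusted p = 0.0432), a call that was lost with RLE scaling, DESeq2 and limma-trend and without any of 3 libraries (MYC-deficient replicate 2 and each MYC-WT replicate). None of 17 mRNA export genes, which act apart from the karyopherins, was called by the quasi-likelihood test, by DESeq2 or by limma-trend, and 7 were lower at an unadjusted p under 0.05, against 20.4% of all genes tested. Nupl1, which encodes the channel protein Nup58, is listed at 0 in all 4 libraries. Exon overlaps were not checked for Nupl1, so this 0 does not show that the gene is not expressed. Without MYC-WT replicate 2 only Ranbp1 of these 37 genes was called, at adjusted p = 0.0948 for Cse1l and 0.0825 for Rae1, and Cse1l was also lost when MYC-WT replicate 1 was left out (adjusted p = 0.0864).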

How the data were processed

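mRNA-seq of 4 libraries was analysed. The authors deposited raw counts per gene for 28443 genes (4413 at 0 in all libraries) and, for 11109 genes that they kept, the same counts and log2 CPM, which were used only in 1 alternative. STAR 2.7.3a, bcl2fastq 1.8.4, fastp, edgeR and mm10 are named in the submitters' processing notes. The roles of these tools, the counter and its strand setting were not found in the sources used here. Without a stated strand setting, reads of genes that overlap on opposite strands cannot be told apart. Among called members this concerns Kpnb1 (466 exon bases shared with Gm11583) and Ipo11 (240 shared with Gm28989).

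The deposited counts were read in R 4.3.3. In edgeR 4.0.16, filterByExpr (min.count 10, min.total.count 15) left 13436 genes, libraries were scaled by TMM (factors 0.982 to 1.02), and glmQLFTest gave the difference between genotypes (MYC-deficient over MYC-WT), with p-values adjusted by Benjamini-Hochberg across the table. The common biological coefficient of variation was 0.167, with 2 residual degrees of freedom. Calls needed an adjusted p under 0.05 together with a change of more than 1.5-fold. Standard errors are the log2 fold change over the square root of F. The script was tested on simulated data with less spread between libraries than these data and no replicate effect. That test therefore does not measure how reliable the calls are here. Alternatives were RLE scaling, scaling by total counts, no filter, only the genes the authors kept, DESeq2 1.42.0, limma-trend (limma 3.58.1) on the deposited log2 CPM, no fold threshold, the replicate number as a block, leaving out each library, and the class ratio without its top members.

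Named genes are the called members, the 2 members not called with the largest change and the 2 with the highest mean CPM in each class, up to 4 called genes of other nuclear transport and all of the Ran cycle; others are named to account for every member. Ndc1 and the paralogue pairs fall outside these rules and were chosen after their values were seen. The members, lists and roles were chosen with earlier results of these data known. All member coordinates are identical in GENCODE M21. Promoter windows are from RefSeq (GRCm38.p6). A planned count of phenylalanine-glycine pairs in the proteins was not run.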

Additional observations from a re-analysis of the deposited data

How the results depend on the processing

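The counts of calls were lowest when a MYC-WT library was left out. The lone sample is then assumed to vary like the MYC-deficient pair, with 1 residual degree of freedom, and the log2 fold changes of the 15 called members moved by at most 0.16. Leaving out each library in turn gave 199 to 1281 genes lower and 65 to 1011 higher of all genes, 2 to 16 members lower, 1 to 8 pore proteins, 1 to 8 karyopherins and 1 to 8 other nuclear transport genes. The lowest counts came without MYC-WT replicate 2. The median log2 fold change ranged between -0.57 and -0.46 for pore proteins and between -0.41 and -0.37 for karyopherins. Without the fold threshold 23 members, 12 pore proteins and 11 other transport genes were lower. Of all genes, 1385 were higher without the filter and 1400 with the replicate block, against 814. The median of karyopherins was -0.35 with limma-trend. Without Nup205 and Kpnb1 the class ratio was 0.508 and 0.527 in MYC-WT libraries. Signs turned, none of them called, for Nup98 (-0.27 to 0.0049, positive without MYC-WT replicate 1), Ipo13 (-0.031 to 0.24, negative without MYC-deficient replicate 2) and Kpna2 (-0.32 to 0.018, positive without MYC-deficient replicate 2). No scaling turned the sign of a member, and the median of all genes moved by less than 0.05 on the log2 scale.

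The labels do not say that libraries of the same replicate number belong together. The difference between replicates correlated across 13436 genes, which are not independent, with r = 0.545 between genotypes. With the replicate number as a block 15 members were lower, and no member gained or lost its call. Adjusted p still fell in every tested member (edgeR's quasi-likelihood test). It went from 0.0539 to 0.0045 for Nup205, from 0.268 to 0.0232 for Xpo1 and from 0.284 to 0.0234 for Nup160. With the block these genes missed only the fold threshold, while others, such as Kpna2 (0.274) and Ipo8 (0.574), still did not pass. Over all genes 1774 were lower with the block, against 1331 without it.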
